A study of Caenorhabditis elegans with 2 samples.

Results

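The genes described here are the sperm genes of Caenorhabditis elegans whose names start with msp, ssp, nspd or spe. They were taken by name from the WBcel235 gene annotation (Ensembl release 115), as every protein-coding gene with one of these prefixes and a digit. The rule gave 82 gene IDs of 19973 nuclear protein-coding genes, namely 31 msp, 12 ssp, 10 nspd and 29 spe genes. The 82 IDs carry 81 names, because ssp-9 names a pair of IDs, WBGene00006038 and WBGene00006040. Binding of MES-4 to these genes was read from peaks of chromatin immunoprecipitation with sequencing (ChIP-seq), in 1 group of 2 biological replicates. The animals were hermaphrodite young adults of strain RW10325, collected 63 h after starved L1 larvae were released, and they carried an inserted MES-4 fused at its C terminus to GFP and FLAG. Chromatin from whole animals was sonicated and precipitated with an antibody to GFP, so every tissue contributed. The promoter of the insertion, and whether untagged MES-4 remained, are not stated in the labels.

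MES-4 is a methyltransferase of lysine 36 of histone H3, which in the worm germ line keeps this mark on genes that were transcribed in the parents' germ line. A hermaphrodite makes sperm as a late larva and then switches to oocytes, so young adults store sperm while the germ line makes oocytes. The msp genes encode the major sperm proteins, which form the cytoskeleton of the crawling sperm and also signal to oocytes to mature. The ssp genes encode small sperm proteins related to them, and the nspd genes encode small nematode-specific peptides. The spe genes were named for spermatogenesis-defective mutants and encode unrelated proteins of sperm development, sperm activation and fertilisation.

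The msp genes are near copies of one another, which bears on where sequencing reads can be placed. Of the 31 msp genes, 28 were 384 bp long, and all 28 began with a start codon. The other 3 were msp-32 with 360 bp and msp-58 and msp-74 with 234 bp each. Over the 378 pairs of the 28 genes, identity ranged from 86.2% to 99.5% with a median of 92.4%. No msp gene of this length was identical to another, and the nearest copy differed by a median of 8.5 bases and by at most 24. The first 60 bases of 6 of them, 3 from each chromosome that holds msp genes, are given 5′ to 3′ on the coding strand (ce11, the same assembly as WBcel235) to show how alike they are. Capitals mark bases that differ from the commonest base of the 28 genes.
msp-3, chrII:4786222-4786281, minus strand: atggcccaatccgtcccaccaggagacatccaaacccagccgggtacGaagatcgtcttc
msp-33, chrII:4892635-4892694, minus strand: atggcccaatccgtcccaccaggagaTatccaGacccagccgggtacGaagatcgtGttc
msp-49, chrII:5194366-5194425, plus strand: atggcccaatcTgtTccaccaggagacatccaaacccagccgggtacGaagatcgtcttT
msp-19, chrIV:5260589-5260648, plus strand: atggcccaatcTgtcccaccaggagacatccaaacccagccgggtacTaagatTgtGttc
msp-56, chrIV:9841540-9841599, plus strand: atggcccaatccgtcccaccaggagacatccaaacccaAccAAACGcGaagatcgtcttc
msp-77, chrIV:9894631-9894690, plus strand: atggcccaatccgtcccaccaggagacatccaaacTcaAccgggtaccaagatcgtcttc
Between 1 and 7 of the 60 bases differed from the commonest base in these copies.

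The copies also shared a short motif in front of the start codon. The motif searched was AGATAA or TGATAA, on both strands, from 250 bases before to 50 bases after the annotated 5′ end. These letters are the site bound by GATA factors, the family of ELT-1, which is known to activate msp genes. The motif lay in 26 of 31 msp, 10 of 12 ssp and 10 of 10 nspd windows, in 10 of 29 spe windows and in 44.6% of the windows of all protein-coding genes. No 5′ UTR is annotated for the 31 msp genes, the 10 nspd genes and 9 of the 12 ssp genes, against 2 of 29 spe genes, so those windows start from the start codon. A match describes the sequence and was not read as binding. The stretches of 30 bases around the motif of the same 6 genes show it in capitals.
msp-3, chrII:4786342-4786371, minus strand: agatctagacagTGATAAggatttgcataa
msp-33, chrII:4892755-4892784, minus strand: gatctaggacagTGATAAggatttgcataa
msp-49, chrII:5194270-5194299, plus strand: agatcaggacagAGATAAgagaggaatttg
msp-19, chrIV:5260496-5260525, plus strand: gatctaggacagAGATAAgaagggtgctat
msp-56, chrIV:9841449-9841478, plus strand: gatctgggacaaAGATAAgaaggttgctat
msp-77, chrIV:9894540-9894569, plus strand: gatttagggcagAGATAAgaaggctgctat
The motif ended 72 to 78 bases before the start codon in all 6.

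The 4 deposited ce11 lists of peaks were read over the 6 nuclear chromosomes. The pooled list, called on both replicates together at a relaxed threshold, held 12008 nuclear peaks, and the list of reproducible peaks 440. The relaxed list of replicate 1 held 15372 nuclear peaks and that of replicate 2 held 14947. Median peak width was 430 to 440 bp. Each peak carries a signal value given by the authors, which was used here only to rank peaks within a list, with rank 1 the highest. The relaxed lists contain background by design, with a median −log10 q of 0.108 to 0.124, and read depth is unknown. A gene was called marked when a peak summit fell between its first and last base or within 500 bp upstream. Fewer cells with MES-4 at a gene and less MES-4 per cell cannot be told apart in whole animals.

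The sperm genes were marked less often than genes at large in the relaxed lists, and the families differed widely. In the pooled list 16 of 82 sperm genes were marked, or 19.5% (exact 95% Clopper-Pearson interval 11.6% to 29.7%), beside 34.3% of all protein-coding genes. With the 1000 strongest pooled peaks alone the share was no longer lower, at 4 of 82 or 4.88%, near the 3.59% of all genes. Of those 4 genes, 3 had their best summit near a tRNA or snRNA gene, as described below. The 16 genes of the whole pooled list were 13 of 29 spe genes, 2 of 12 ssp genes, 1 of 31 msp genes and 0 of 10 nspd genes. As shares, 44.8% of spe genes (26.4% to 64.3%) were marked against 5.66% of the 53 genes of the other 3 families (1.18% to 15.7%). In the reproducible list only spe-9 was marked, 1 of 82 sperm genes or 1.22% (0.0309% to 6.61%), which is near the 1.45% of all genes. In replicate 1, 18 sperm genes were marked, or 22.0% against 40.6% of all genes. In replicate 2, 13 were marked, or 15.9% against 39.5%, and all 13 were spe genes. Intervals cover counting error alone, and no test over genes was made because 1 group gives no contrast and genes are not replicates.

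**Figure D1:**
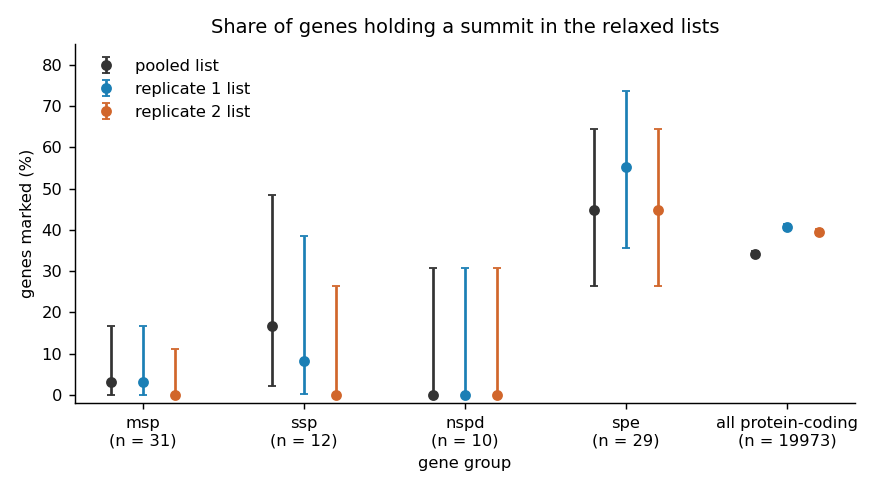
Share of genes marked (percent, vertical axis) in each sperm gene family and among all protein-coding genes, in the pooled list and the list of each replicate, with exact 95% intervals as bars. The spe points lie above those of all genes in the 3 lists, 44.8% against 34.3% in the pooled list, while the nspd points lie at 0 and the msp points at 3.23% or 0.

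The share of genes holding a summit rose with gene length, and the families differ in length. Median length was 384 bp for msp, 330 bp for ssp, 216 bp for nspd and 2407 bp for spe genes, against 2027 bp for all genes. Among all genes the share marked in the pooled list rose from 11.8% of those up to 500 bp to 57.5% of those over 4000 bp. Of the 51 sperm genes up to 500 bp, 3 were marked in the pooled list, 2 in replicate 1 and 0 in replicate 2, beside 11.8%, 15.1% and 12.0% of all genes of that length. The sperm genes over 1000 bp were all spe genes. Above 1000 and up to 2000 bp, 2 of 9 were marked in the pooled list beside 24.8% of all genes. Above 2000 and up to 4000 bp, 6 of 12 were marked beside 36.4%, and over 4000 bp 5 of 6 beside 57.5%. The marked spe genes had a median length of 3327 bp and the unmarked ones of 1864 bp, against 2927.5 and 1740 bp for marked and unmarked genes at large.

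**Figure D2:**
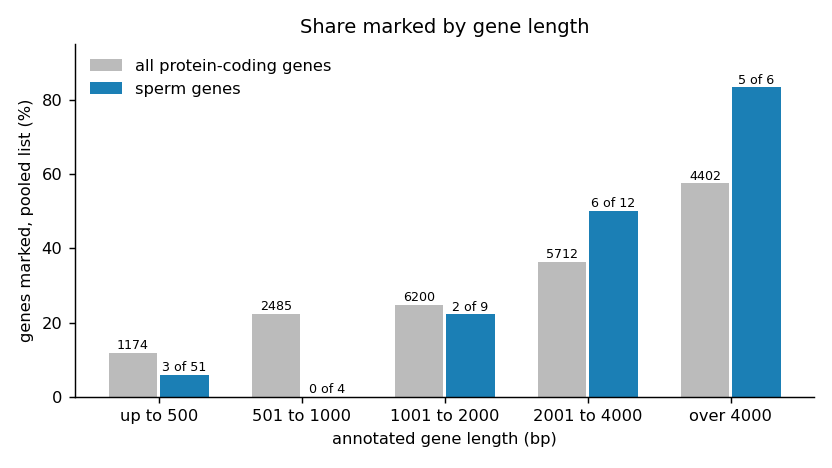
Share of genes marked in the pooled list (percent, vertical axis) by annotated gene length (bp), in grey for all protein-coding genes, with their number, and in blue for sperm genes, with the count marked. The share of all genes rises from 11.8% to 57.5%, and 3 of 51 sperm genes up to 500 bp are marked.

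Expressed per length of window, the msp genes held fewer summits than the genome, but the counts were small and the difference was not tested. Part of the msp sequence also occurs more than once in the genome, as described below. The pooled list held 119.8 summits per Mb over the nuclear genome and 140.4 per Mb in the windows of all protein-coding genes. The 31 msp windows, 27.1 kb in all, held 1 summit, where the genome density would place 3.24. The 10 nspd windows, 7.16 kb in all, held 0 where it would place 0.857, so too little sequence was surveyed for a lower density to be seen there. The ssp windows held 2 summits where it would place 1.31. The spe windows, 112 kb in all, held 19 summits where it would place 13.4. Their density was 169.7 per Mb, beside the 140.4 per Mb of all gene windows. Of the 19 summits, 5 lay in spe-9 alone, and 6 lay within 220 bp of a tRNA, snRNA or snoRNA gene. In replicate 2 the msp windows held 0 summits where that list's genome density would place 4.04.

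The 4 genes of the 3 short families that were marked at all were each marked in 1 or 2 lists. The msp-49 gene was marked in the pooled list alone, at rank 10982 with signal 29.1, close to the lowest signal in that list, 28.3. Its summit lay 105 bp upstream of the start codon. The msp-56 gene was marked in replicate 1 alone, at rank 13584 with signal 16.3, by a summit 105 bp inside the gene. In that gene body 10.3% of 36-base stretches occurred once in the genome. The ssp-9 gene WBGene00006038 was marked at rank 5744 in the pooled list and rank 5150 in replicate 1, by summits 335 and 321 bp upstream, and was not marked in replicate 2. Its signals, 35.5 and 22.0, were above the medians of those lists, 35.1 and 19.6. The second ssp-9 gene, WBGene00006040, was marked in no list. No stretch of 36 bases in either ssp-9 gene body occurred once in the genome. In the 500 bp upstream, where the summits lay, 86.9% of such stretches did for both genes. The ssp-34 gene was marked in the pooled list alone, at rank 11150 and 492 bp upstream, near the edge of the window. None of the 4 was marked in both replicates. The region of msp-49 is shown from upstream of the pooled summit through the first 30 bases of the gene, with the 21 bases around the summit in capitals.
msp-49, chrII:5194216-5194395, plus strand: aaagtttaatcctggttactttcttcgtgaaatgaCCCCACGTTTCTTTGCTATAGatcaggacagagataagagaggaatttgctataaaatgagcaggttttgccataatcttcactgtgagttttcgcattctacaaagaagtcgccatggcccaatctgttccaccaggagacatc
The AGATAA motif of msp-49 lies 3′ of the summit within this stretch.

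Much of the msp sequence occurs more than once in the genome, where a short read has no single place. Over the msp windows a median of 57.2% of 36-base stretches occurred once in the genome, with a range of 21.9% in msp-19 to 83.6% in msp-64. Within the msp gene bodies the median was 20.1%, and in the 500 bp upstream it was 91.2%. The median window share was 91.7% for ssp, 79.2% for nspd and 99.5% for spe genes, and 100% for all genes. With 50-base stretches the msp medians were 64.7% for the window and 30.1% for the body. The read length, and how reads with several matches were treated, are not stated in the labels. Among all protein-coding genes, those with at most 50% unique stretches were marked in 3.86% of cases in the pooled list, against 36.2% of those above 90%. Of the genes up to 500 bp that are not sperm genes, 1.56% of 128 with at most 50% unique stretches were marked, 5.66% of 53 from 50% to 70%, 8.33% of 132 from 70% to 90% and 14.8% of 810 above 90%. The sperm genes up to 500 bp had 0 of 10, 1 of 21, 1 of 10 and 1 of 10 marked in the same classes. Both the share of unique sequence and the share marked were thus low in the msp genes, and the part of one in the other was not tested.

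**Figure D3:**
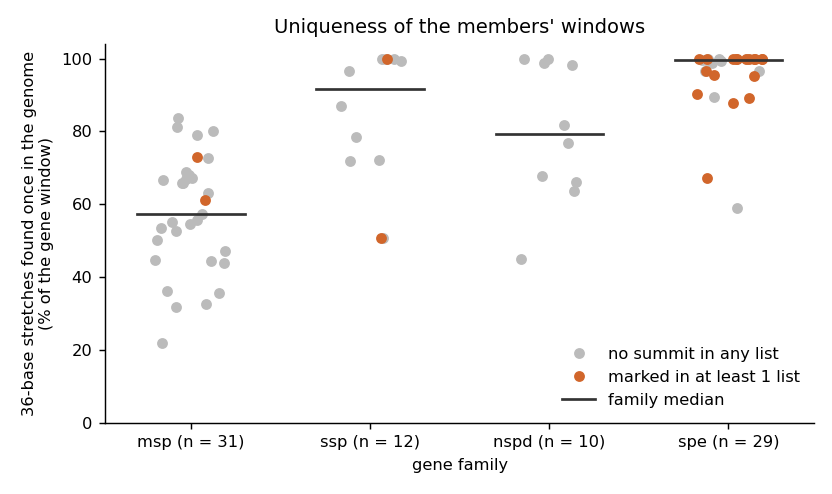
Percent of 36-base stretches of each gene window that occur once in the genome, 1 point per sperm gene by family, orange where marked in at least 1 list, with a line at the family median. The msp median of 57.2% is the lowest and the spe median of 99.5% the highest.

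Most msp genes lie in groups on II and IV. The sperm genes in those groups were marked in 1 of 35 cases in the pooled list. Beside them, 39 of 96 other genes in the same spans were marked, which were not matched for length or unique sequence. Members lying at most 50 kb apart, in groups of at least 3, formed 7 clusters with 35 sperm genes, 15 on II and 20 on IV, over 414.7 kb in all. The first cluster on II (4785898 to 4933410) ran from msp-3 and msp-40 to msp-31 and msp-152. The second (5115102 to 5200180) held msp-74, msp-45, msp-49 and msp-50, and the third (5797065 to 5810330) msp-63, msp-142 and msp-64. On IV the first cluster (5055631 to 5065061) held msp-55, msp-57 and msp-53. The second (5260589 to 5316906) ran from msp-19 and msp-51 to msp-59 and msp-65. The third (9765637 to 9770429) held ssp-36, msp-79 and msp-78, and the fourth (9836034 to 9934322) ran from msp-81 and msp-10 to ssp-32 and spe-29.

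In the pooled list 1 of the 35 clustered sperm genes was marked, msp-49, against 39 of the 96 other protein-coding genes in the same spans, or 40.6%. In replicate 1 the counts were 1 of 35, msp-56, and 41 of 96. In replicate 2 they were 0 of 35 and 43 of 96, and in the reproducible list 0 of 35 and 1 of 96. The spans as a whole held 61 pooled summits, or 147 per Mb against 119.8 in the genome. Values of single clusters rest on few summits, and differences between clusters were not tested. The first cluster on II held 28 summits, or 190 per Mb. Its 8 sperm genes were unmarked in all 4 lists, and 18 of its 35 other genes were marked in the pooled list. The second and the third on II held 8 summits and 1 summit, or 94.0 and 75.4 per Mb, with 4 of 20 and 1 of 4 other genes marked. On IV the clusters that start at msp-55, msp-19 and msp-81 held 2, 7 and 15 summits, or 212, 124 and 153 per Mb. In the same order 1 of 1, 2 of 12 and 13 of 24 other genes were marked. The 4.79 kb cluster of ssp-36, msp-79 and msp-78 held no other gene and no summit in any list. Neighbouring genes share summits and are not independent. The other genes in the spans were not matched for length or for unique sequence, both of which are low in the msp genes. The unmarked msp genes lay a median of 3818.5 bp from the nearest pooled summit, measured from their windows, with a range of 256 to 11394 bp. Outside the clusters, 1 of 1 sperm gene on II (spe-18) and 6 of 17 on IV were marked in the pooled list, the latter near the 34.9% of all genes on IV. Of those 17, 8 were spe genes, a longer family, against 1 of the 20 clustered sperm genes on IV.

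**Figure D4:**
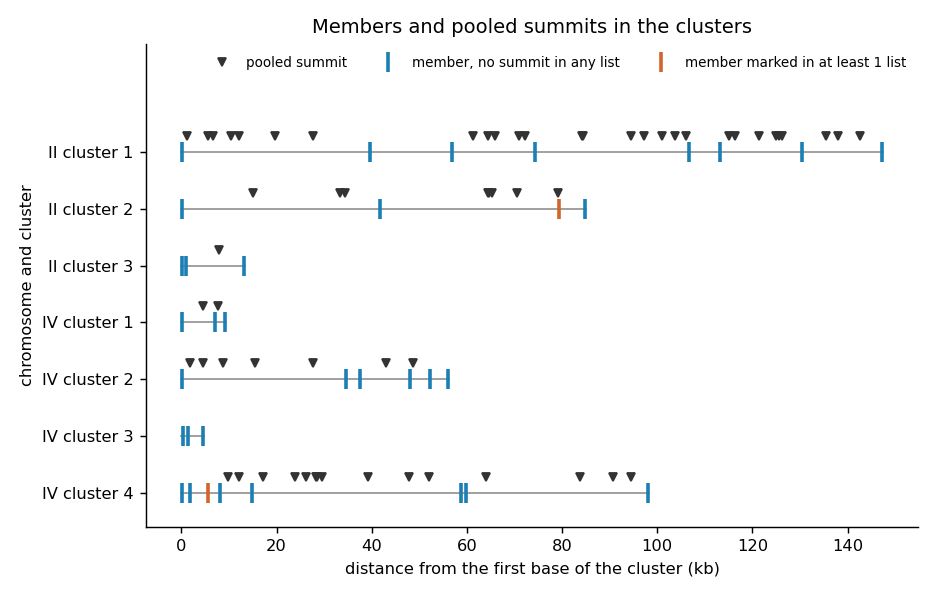
Sperm genes (bars) and pooled summits (triangles) in the 7 clusters on II and IV, by distance in kb from the first base of each cluster. The orange bars are msp-49, marked in the pooled list, and msp-56, marked in replicate 1, and the other 33 of the 35 sperm genes (blue) hold no summit in any list.

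The marked spe genes have unlike roles. Of the proteins needed at fertilisation, spe-36 encodes a secreted protein with an EGF motif and was marked at rank 2700 with signal 43.6 in the pooled list, rank 3932 in replicate 1 and rank 4814 in replicate 2. The spe-51 gene, for another secreted protein, was lower, at ranks 9420, 7070 and 12281 in the same order. For spe-44, which encodes a transcription factor of the spermatogenesis programme, the ranks were 2666, 10044 and 3593. For spe-18, which is needed to assemble the fibrous bodies that store major sperm protein, they were 4980, 3395 and 9151. All 4 were marked in the pooled list and both replicates, but in spe-51 the peaks of the replicates did not overlap. Its summits lay 3819 and 4078 bp from the 5′ end in replicate 1 and 1610 bp in replicate 2. The order was spe-44, spe-36, spe-18 and spe-51 in the pooled list and in replicate 2, while in replicate 1 spe-18 came first and spe-44 last.

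The 151 bases around the strongest pooled summit of 3 of these genes are given on the gene's strand, with the 21 bases around the summit in capitals. They were chosen as genes marked in both replicates by overlapping peaks, with no small RNA gene nearby. The 3 summits lay in coding exons, 474 bp from the 5′ end in spe-36, 1609 bp in spe-44 and 947 bp in spe-18.
spe-36, chrIV:11591716-11591866, minus strand: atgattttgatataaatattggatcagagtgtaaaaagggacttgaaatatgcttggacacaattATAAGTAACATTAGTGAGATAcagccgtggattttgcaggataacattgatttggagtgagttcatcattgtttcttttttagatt
spe-44, chrIV:12452531-12452681, minus strand: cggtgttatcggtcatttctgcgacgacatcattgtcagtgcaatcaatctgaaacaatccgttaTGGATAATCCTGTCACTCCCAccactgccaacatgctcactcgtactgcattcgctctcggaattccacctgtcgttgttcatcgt
spe-18, chrII:13152377-13152527, minus strand: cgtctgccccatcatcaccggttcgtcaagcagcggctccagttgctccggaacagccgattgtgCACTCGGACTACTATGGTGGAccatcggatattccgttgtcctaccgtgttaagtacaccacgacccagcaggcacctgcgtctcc
At least 99.9% of the 36-base stretches in the windows of these 3 genes occurred once in the genome, unlike those of the msp genes.

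The 22 pooled summits in sperm genes were 6 upstream, 8 in coding exons, 6 in introns and 2 in 3′ UTRs. None lay in an annotated 5′ UTR, a part that 31 msp, 10 nspd, 9 ssp and 2 spe genes lack. In replicate 1 the 29 summits fell as 6, 11, 9 and 3, and in replicate 2 the 24 summits as 4, 8, 11 and 1. Some summits also lay in the window of a neighbouring gene, so the gene they belong to is uncertain. This held for 5 of the 22 pooled summits, and 4 sperm genes were marked by such summits alone. No shares over all genes were set beside the counts of this paragraph, so they describe the sperm genes alone.

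Further members were marked beyond these 4. The spe-39 gene, for a protein of vesicle trafficking, was at rank 2941 in the pooled list, 6592 in replicate 1 and 1251 in replicate 2. Its pooled summit lay in the 3′ UTR, in a window shared with ZC404.2, and the replicate 2 summit of rank 1251 lay 121 bp upstream, in a window shared with spn-4. The spe-6 gene, for a kinase like casein kinase, was at ranks 9979, 10396 and 8293, also with a shared pooled summit. Its peaks in the replicates did not overlap, with summits 1140 bp from the 5′ end in replicate 1 and 274 bp in replicate 2. The spe-19 gene of sperm activation was at rank 7177 in the pooled list and 10101 in replicate 2. The spe-47 gene was at rank 5155 in the pooled list and 1479 in replicate 1, and was unmarked in replicate 2. The spe-4 gene, for a presenilin, was unmarked in the pooled list but was at rank 5509 in replicate 1 and 10767 in replicate 2, by summits in different places.

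Of the members, 4 stood in the top 1000 peaks of the pooled list, all spe genes on I, or 4.88% of the 82 beside 3.59% of all genes. They were spe-9 at rank 388 with signal 81.3, spe-48 at rank 449 with signal 76.8, spe-15 at rank 477 with signal 75.1 and spe-46 at rank 722 with signal 63.9. In replicate 1 their best ranks were 322, 366, 291 and 354. In replicate 2 they were 913 for spe-9, 1371 for spe-48 and 2314 for spe-15, and spe-46 was unmarked. A replicate 2 peak at rank 4486 lay next to spe-46, with its summit 150 bp past the 3′ end and inside the small RNA gene sls-2.7. The 4 members were the highest in the pooled list and in replicate 1, and ranked lower or were unmarked in replicate 2. With its 440 peaks of highest signal, the number of reproducible peaks, replicate 1 marked these 4 members, or 4.88% beside 1.52% of all genes. With as many peaks replicate 2 marked no member, beside 1.49% of all genes. The −log10 q of these members' best pooled summits was 1.54 to 2.07, against a median of 0.141 over all 22 pooled summits in sperm genes.

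**Figure D5:**
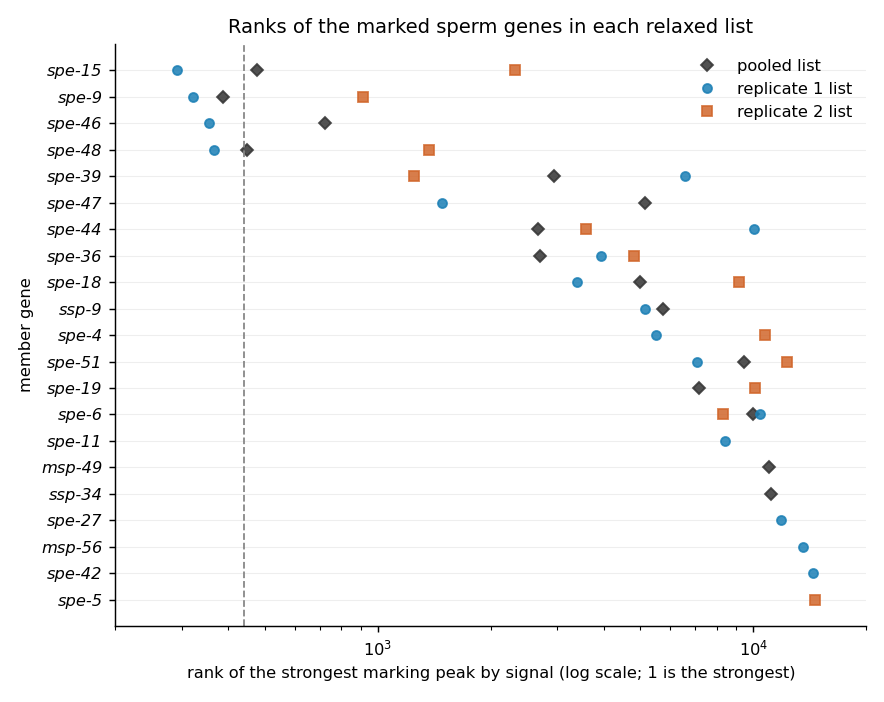
Rank of the strongest marking peak of marked sperm genes (log axis, rank 1 highest) in the pooled list and in each replicate, with a dashed line at rank 440, the number of reproducible peaks. The 4 genes at the top are spe-15, spe-9, spe-46 and spe-48, and spe-9 is the one left of the line in the pooled list.

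Of these 4 members, 3 carried a small RNA gene, meaning a tRNA, snRNA or snoRNA gene, within 220 bp of a summit. In the pooled list 6 of the 22 summits, in 3 members, lay so, while 6.09% of all pooled peaks and 65.9% of reproducible peaks did. Most of these 6 summits lay in spe-9 alone, at ranks 388, 532, 1152 and 7787. The spe-9 gene, for an EGF-repeat transmembrane protein that sperm need to fertilise (I, 11584575 to 11585014 for the peak), had its best summit in an intron, inside the nested tRNA-Lys gene C17D12.t2. Its other tRNA-Lys gene, C17D12.t1, held a further summit at rank 7787. The reproducible peak that marked spe-9 was the same as its best pooled peak, at rank 388 of 440. The spe-15 gene, for a myosin VI, had its best summit in an intron, 82 bp from the tRNA-Arg gene F47G6.t1 in the pooled list, 118 bp in replicate 1 and 108 bp in replicate 2. The spe-46 gene, of sperm activation, was marked 71 bp from sls-2.7, a gene for spliced leader RNA, in a window shared with W06D4.3, and this was its only pooled summit. The spe-48 gene had none nearby, and its summit lay 33 bp upstream in a window shared with Y51F10.11.

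The spe-12 gene, which acts in sperm activation, gave the closest miss. It was unmarked, yet a reproducible peak of rank 23 (I, 8224187 to 8224626) overlapped its window, with its summit 132 bp past the 3′ end and 67 bp from the snoRNA gene T02E1.9. That peak had ranks 21 and 25 in replicates 1 and 2, with summits 87 and 148 bp past the end. Counting overlap in place of summits thus added spe-12 to spe-9 in the reproducible list. In replicate 1, spe-27 of sperm activation, marked at rank 11822, had its summit near the piRNA genes 21ur-3996, 21ur-7315 and 21ur-11343, which are not counted as small RNA genes here.

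Replicate 1 marked more sperm genes than replicate 2, and 11 members were marked in both, or 13.4% beside 26.1% of all genes. Another 7 were marked in replicate 1 alone and 2 in replicate 2 alone, and 62 in neither. The 11 were 61.1% of the members marked in replicate 1 and 84.6% of those in replicate 2, against 64.1% and 65.9% for all genes. All 11 were spe genes. The members of replicate 1 alone were msp-56, ssp-9, spe-11, spe-27, spe-42, spe-46 and spe-47, and those of replicate 2 alone were spe-5 and spe-19. Peaks of both replicates overlapped in 8 members, or 9.76% against 18.7% of all genes. Among them, the summits lay 4 bp apart in spe-48 and in spe-9, 10 bp in spe-15, 27 bp in spe-39, 59 bp in spe-36, 148 bp in spe-44 and 345 bp in spe-18.

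The remaining spe genes were unmarked in all 4 lists or weakly marked once. Of the 29, 11 were marked in no list, among them spe-8, spe-10, spe-12, spe-26, spe-29, spe-38, spe-41, spe-43, spe-49 and spe-54. They include the fertilisation genes spe-38, spe-41 and spe-49 and the activation genes spe-8, spe-12, spe-29 and spe-43. Lengths of these 11 ranged from 443 bp in spe-29 to 5200 bp in spe-41. In one replicate alone, spe-11, a paternal-effect gene, was marked at rank 8385 and spe-42, of fertilisation, at rank 14406 in replicate 1, and spe-5, for a subunit of the vacuolar proton pump, at rank 14603 in replicate 2. Over all lists together, 22 of the 82 sperm genes were marked in at least 1 list, 18 of them spe genes, and 60 in none. These are 26.8% of the sperm genes and 62.1% of the spe genes, beside 54.9% of all protein-coding genes. By chromosome in the pooled list, 5 of 19 were marked on I beside 41.7% of all genes there, and 2 of 16 on II beside 34.6%. On III 1 of 3 was marked beside 45.3%, on IV 6 of 37 beside 34.9% and on V 2 of 7 beside 26.1%. X holds none of these genes.

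Other spermatogenesis genes outside the name rule had lower shares marked than genes at large in the relaxed lists, a difference that was not tested. Of 35 such gene IDs, 5 were marked in the pooled list, or 14.3% (4.81% to 30.3%) beside 34.3% of all protein-coding genes. In the reproducible list 0 were marked, beside 1.45%. In replicate 1 there were 7, or 20% (8.44% to 36.9%) beside 40.6%. In replicate 2 there were 9, or 25.7%, with an interval (12.5% to 43.3%) that holds the 39.5% of all genes. Marked in both replicates were 4, or 11.4% (3.20% to 26.7%) beside 26.1%. These genes were shorter, with a median length of 1011 bp against 2027 bp for all genes. Their windows held 6 pooled summits where genome density would place 8.68. In replicate 1 these values were 9 and 11.1, and in replicate 2 they were 10 and 10.8. The pooled 5 were snf-10 at rank 1649, elt-1, the GATA factor gene, at rank 2299, wee-1.3, a kinase gene, at rank 5363, spch-1, for a sperm chromatin protein, at rank 6938 and try-5, a protease gene of sperm activation, at rank 10978. Marked in replicate 1 but not in the pooled list were fog-2, gsp-3 and peel-1, and likewise in replicate 2 cpb-1, msrp-1, msrp-7 and smz-2.

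Markers of the other tissues in the whole animal were read by the same rule. Of 10 sperm markers, which include members of the list, spe-9 was the 1 marked in the pooled list. In the same list 5 of 7 oocyte, 4 of 4 germ line, 4 of 4 intestine, 2 of 2 muscle, 1 of 2 neuron and 2 of 2 hypodermis markers were marked. Of all protein-coding genes, 34.3% were marked in that list. For the other lists, counts follow in the order sperm, oocyte, germ line, intestine, muscle, neuron and hypodermis. In replicate 1 they were 3, 6, 4, 3, 2, 2 and 2, beside 40.6% of all genes. In replicate 2 they were 1, 6, 4, 3, 1, 2 and 1, beside 39.5%. In the reproducible list they were 1, 2, 1, 0, 0, 0 and 1, beside 1.45%. The marker lists were short and were not matched for length. They were also not matched for unique sequence, which is low in the msp genes among the sperm markers. The tagged gene mes-4 was marked at rank 83 in the pooled and reproducible lists, 71 in replicate 1 and 267 in replicate 2.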

How the data were processed

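The deposited peak lists on ce11 give a signal value and a −log10 q value for each peak, and the authors' column for p held no values. Per the deposited descriptions of the files, relaxed lists were called on each replicate separately and on both pooled, and reproducible peaks were kept by the irreproducible discovery rate. No source used here names the aligner, peak caller or thresholds, and the control, an untagged precipitation and the ce10 lists were not analysed here. Mitochondrial peaks were left out. Nothing on the replicates' cultures was used beyond the label biological. Coordinates are 1-based.

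A gene was marked when a summit fell in the gene or within 500 bp upstream, and a small RNA gene was near when within 220 bp of the summit. Clusters on II and IV joined members at most 50 kb apart, with at least 3 members. Shares carry exact 95% Clopper-Pearson intervals. Uniqueness was counted over stretches of 36 and 50 bases of the RefSeq assembly on both strands. Sequences were credited to that assembly, tRNA types to RefSeq and genes to Ensembl release 115. The genes named were members marked in the reproducible list, the 10 of highest signal in each relaxed list, those with overlapping replicate peaks or a nearby small RNA gene, cluster ends, marked genes of the other spermatogenesis list, and mes-4. Unmarked and weakly marked members are named as well. Of the members, 2 are counted in every total but are not reported here by name. Members and lists were chosen with earlier results of these data known. Of 40 names in the other spermatogenesis list, 35 gene IDs outside the members were found. The marking rule was tested on simulated data. Scripts ran on Python 3.11.15 with pandas 2.3.3, numpy 2.4.6, matplotlib 3.10.9 and scipy 1.17.1. Alternatives varied the window, the peaks used, the overlap, the cluster distance and the replicate left out.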

Additional observations from a re-analysis of the deposited data

How the results depend on the processing

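Of the alternative counts run, 36 lay within 1.5 times the reported count and 16 did not. The family counts were added after seeing the data. With the 1000 strongest pooled peaks, 4 of 82 sperm genes were marked (16 reported), 4 of 29 spe genes (13 reported) and 0 of the 53 msp, ssp and nspd genes (3 reported). The share of all sperm genes, 4.88%, was then no longer below that of all genes, 3.59%, but near it. The 3 msp, ssp and nspd genes became 0 with the gene body alone, 1 with 250 bp upstream and 1 with the peaks above the median signal, and 0 to 1 when either replicate was left out. The single reproducible gene, spe-9, became 2 genes with any overlap of the peak, 0 without peaks at small RNA genes and 0 with the peaks above the median signal. It became 0 without replicate 1 and 4 without replicate 2, each from the 440 strongest peaks of the remaining replicate. The 0 stands beside 1.49% of all genes and the 4, or 4.88%, beside 1.52%, so the side of the all-gene share depended on the replicate. In replicate 2, the peaks above the median signal marked 7 (13 reported), or 8.54%, while the share of all genes went from 39.5% to 24.2%. Marking in both replicates fell to 7 (11 reported), or 8.54%, when peaks had to overlap by 50% of the narrower one. It fell to 5, or 6.10%, with the 5000 strongest peaks of each. The share of all genes marked in both fell as well, from 26.1% to 16.3% and 8.57%. No paired analysis was possible because there was 1 group. Read depth and read length are unknown, so a count of 0 at a copied gene is not a measure of absence.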
